A study of Saccharomyces cerevisiae with 4 samples.

Results

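A group of 42 yeast genes had less than 0.5 times the Ssa1 signal in the strains that live on Ssa2 or on Ssa4 and at least 0.5 times the Ssa1 signal in the strain that lives on Ssa3. They were picked from the 5771 of 5794 features with a value on all 4 arrays, by the ratio of the deposited linear intensities. The ratio limits alone were met by 47 features. CTA1 was then set aside by name, and PUT4, XKS1, MLS1 and CIT3 were set aside because their Ssa4 value was below 0.5 times that of each other array. The same values therefore chose the genes and describe them, and no test was made. All 42 genes have a name, taken from the study's list of changed genes by matching the 4 intensities.

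Each strain was represented by 1 array, so no value has an error from replicates. The strains of interest expressed Ssa2, Ssa4 or Ssa3 as the sole Ssa-type Hsp70, and the strain expressing Ssa1 was the reference of the study. All 4 were [psi-] derivatives of the haploid MATa strain G402, in which SSA1, SSA2, SSA3 and SSA4 are disrupted by KanMX, HIS3, TRP1 and URA3-1f. All also carry ade2-1 with the suppressor tRNA SUQ5, the kar1-1 allele, and markers in trp1, lys2, his3, ura3 and leu2. The Ssa protein was made from a LEU2 plasmid, with the SSA2 promoter driving each gene. For each array the deposited design pooled RNA of 8 extractions from 5 ml cultures, whereas the methods describe a smaller pool. The labels call the cultures exponential and the methods call them overnight cultures, so the growth phase behind these values is not settled. SSA2 itself read 2505 on the Ssa2 array, against 2.38, 1.21 and 9.01 on the Ssa4, Ssa3 and Ssa1 arrays.

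Hsp70 proteins of the Ssa type fold new and damaged proteins in the yeast cytosol, and SSA1 and SSA2 are the constitutive genes of the family while SSA3 and SSA4 respond to stress. Many genes of yeast metabolism are set by the nutrients at hand. Carbon catabolite repression keeps genes for respiration, the glyoxylate cycle and other sugars low while glucose lasts, and nitrogen catabolite repression does the same for the use of poor nitrogen sources. Genes for spores and for the alpha mating type are largely silent in growing haploid MATa cells.

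The background of the rule was set over the 5771 features. The ratio to Ssa1 was below 0.5 for 2.37% of them in the Ssa2 strain, 7.1% in the Ssa4 strain and 1.94% in the Ssa3 strain, and 0.814% met the ratio limits together. The 42 genes are 0.728% of these features. All 3 comparisons share the Ssa1 array, so a high spot there lowers each ratio at once. As the rule used these ratios, nothing is read from the counts.

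**Figure D1:**
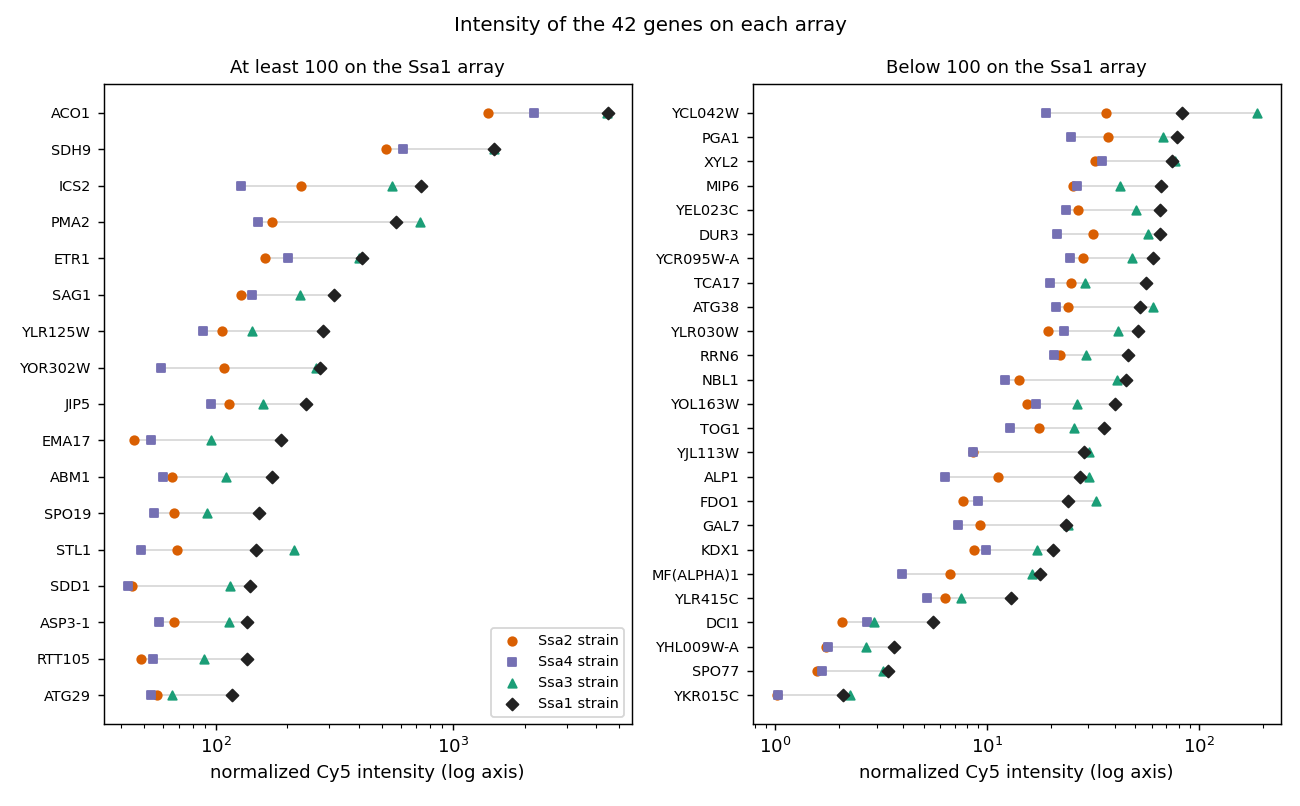
Normalized Cy5 intensity (log axis) of each of the 42 genes on the arrays of the Ssa2, Ssa4, Ssa3 and Ssa1 strains, 1 point per array, with 17 genes of at least 100 on the Ssa1 array at left and 25 below 100 at right. The Ssa2 and Ssa4 points lie to the left of the Ssa1 point by the rule, while the Ssa3 point lies at or right of it for genes such as PMA2, STL1 and YCL042W.

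The genes were of low signal as a group. Their median intensity was 29.9 on the Ssa2 array, 24.0 on Ssa4, 58.9 on Ssa3 and 65.6 on Ssa1, whereas the median of all features was 201 on the Ssa2 array and about the same on the others. On the Ssa1 array 25 of the genes read below 100, beside 32.0% of all features. Of the 42, 17 read at least 100 there, 19 read between 20 and 100, and 6 read below 20. The share of features that belonged to the group was 0.433% among those of at least 100 on Ssa1, 1.45% between 20 and 100 and 1.11% below 20. DCI1, YHL009W-A, SPO77 and YKR015C read below 6 on all 4 arrays, close to the lowest value of any feature, 0.744.

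The ratios to Ssa1 had a median of 0.406 in the Ssa2 strain, with a range of 0.240 to 0.494, and a median of 0.386 in the Ssa4 strain, with a range of 0.174 to 0.492. In the Ssa3 strain the median was 0.829 and the range 0.502 to 2.25. Over all features the medians were 0.985 for Ssa2, 0.993 for Ssa4 and 1.03 for Ssa3. A 3-fold lower signal than Ssa1 was reached by 8 genes in the Ssa2 strain and 15 in Ssa4, beside 0.399% and 1.8% of all features. The rule kept only genes below 0.5 in both strains, so high shares are built in and nothing is read from these counts. Both strains were past 3-fold for 6 genes, which were ICS2, PMA2, EMA17, SDD1, NBL1 and YJL113W.

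**Figure D2:**
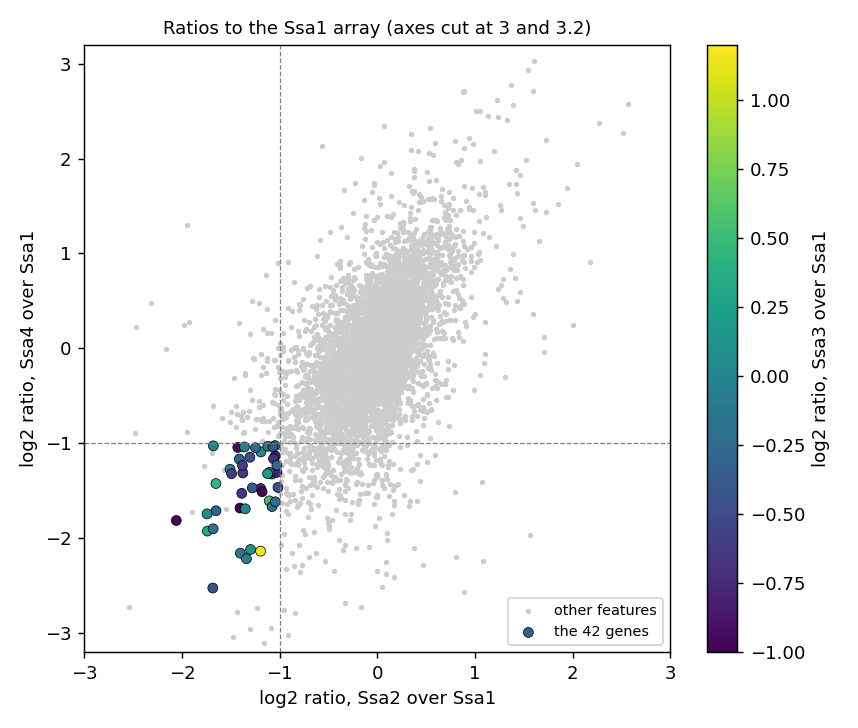
Log2 ratio to Ssa1 in the Ssa2 strain (x) and Ssa4 strain (y) for the 5771 features with 4 values, the 42 genes coloured by their log2 ratio in the Ssa3 strain and all other features in grey, with dashed lines at 0.5 times Ssa1. The 42 genes fill part of the lower left corner by the rule, and 26 of them had an Ssa4 value under their Ssa2 value. The axes leave out 12 features, none of them among the 42.

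The rule bounds both ratios and removed genes far lower in Ssa4, so it limits how far the Ssa2 and Ssa4 values can lie apart. The Ssa4 intensity was within 1.3-fold of the Ssa2 intensity for 31 of the 42, as for 58.1% of all features, and nothing is read from this count. The median ratio of Ssa4 to Ssa2 was 0.894. It was lower on the Ssa4 array for 26 genes and higher for 16. The extremes were YCL042W at 0.521 and ACO1 at 1.57. For the Ssa3 array the rule set a lower limit only. Its intensity was 0.8 to 1.2 times that of Ssa1 for 19 genes and 0.5 to 0.8 times for another 19. It was above 1.2 times for PMA2, STL1, FDO1 and YCL042W. The shares of all features in these bands are not given here, and nothing is read from these counts.

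The Ssa3 array can stand in for Ssa1 as the array to divide by, although the rule set a lower limit on it. Against Ssa3, the Ssa2 signal was below 0.5 for 21 of the 42 genes, the Ssa4 signal for 21, and both for 17, beside 3.74%, 6.65% and 1.47% of all features. The genes were chosen for low Ssa2 and Ssa4 values, so these counts are no independent support. Of the 17 genes, 7 read at least 100 on the Ssa1 array: ACO1, SDH9, ICS2, PMA2, YOR302W, STL1 and SDD1. For ATG29, TCA17 and YLR415C, by contrast, the Ssa3 value lay nearer to the Ssa2 value, with ratios of Ssa2 to Ssa3 of 0.869, 0.862 and 0.847.

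By role, 9 of the genes encode metabolic enzymes or regulate them, 5 are plasma membrane transporters, 7 act on chromosomes, RNA or ribosomes, and 5 act in secretion, cell wall signalling or autophagy. A further 2 are needed for spores, 2 belong to the alpha mating type and 2 are retrotransposon genes. The other 10 were put in no role, although SDD1 and YEL023C among them are also on the list for meiosis and spores used below. Counts over the gene lists below cover only genes named because the study listed them as changed. The lists were also written with earlier results known and hold members of the group. High shares are therefore built in, and nothing is read from these counts. Over all features, the share below 0.5 times Ssa1 was 2.37% in Ssa2, 7.1% in Ssa4 and 1.94% in Ssa3.

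ACO1, which encodes the aconitase of the citrate cycle, was the brightest of the genes. Its intensity was 1396 on the Ssa2 array, 2193 on Ssa4, 4425 on Ssa3 and 4466 on Ssa1. The Ssa2 and Ssa4 arrays were the low ones by the rule, by 3.2-fold in the Ssa2 strain and 2.04-fold in Ssa4. The Ssa4 value was 0.496 times the Ssa3 value. With a ratio of 0.491, ACO1 was among the genes nearest to the Ssa4 limit.

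SDH9 (YJL045W), a minor isozyme of the flavoprotein of succinate dehydrogenase, gave the next brightest signal. It read 522 on the Ssa2 array, 615 on Ssa4, 1479 on Ssa3 and 1485 on Ssa1, so the Ssa3 and Ssa1 values were nearly equal. The ratios were 0.352 for Ssa2 and 0.414 for Ssa4. Its major paralogue SDH1 read 338, 226, 417 and 512 on the Ssa2, Ssa4, Ssa3 and Ssa1 arrays, which is past 2-fold in the Ssa4 strain but not in the Ssa2 strain. How far the SDH9 probe also binds SDH1 RNA was not tested.

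ACO1 and SDH9 lie in the same block of a grid inferred from the feature names and these values, with 2 spots between them. Those spots had ratios to Ssa1 of 1.1 and 1.33 in the Ssa2 strain and 0.54 and 1.64 in Ssa4. None of these was below 0.5. ACO1 and SDH9 are below it by the rule, so nothing is read from this contrast.

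**Figure D3:**
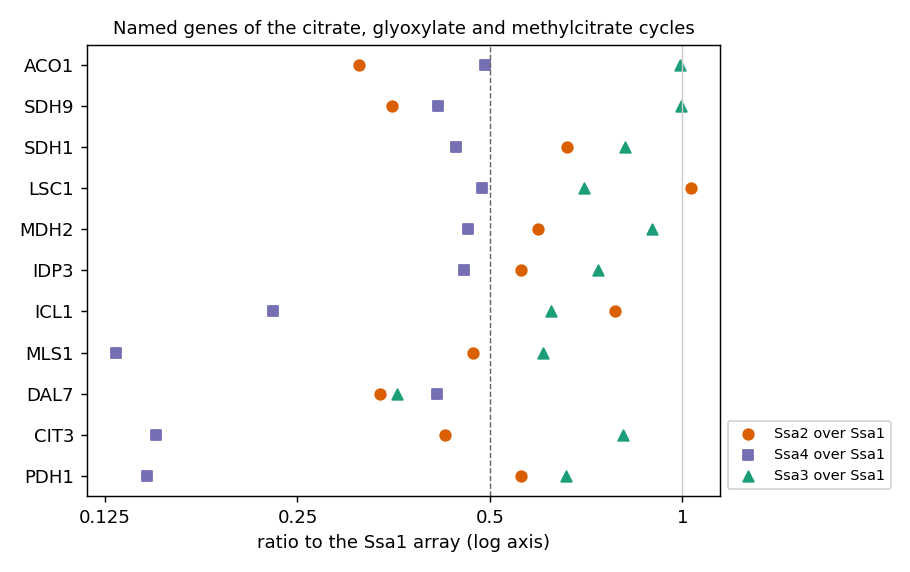
Ratio to Ssa1 (log axis) in the Ssa2, Ssa4 and Ssa3 strains for the 11 genes of the citrate, glyoxylate and methylcitrate cycles that have a name, with a dashed line at 0.5. ACO1 and SDH9 lie left of the line in Ssa2 and Ssa4 and at 0.991 and 0.996 in Ssa3, whereas ICL1, LSC1, MDH2, IDP3, SDH1 and PDH1 lie left of it in Ssa4 only.

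The other genes of these cycles were read from a list of 29, of which 11 have a name here. A name is known only for genes that the study listed as changed, or 16.3% of the features, so these counts do not speak for the whole pathway. Of the 11, 11 were below 0.5 times Ssa1 in the Ssa4 strain, 5 in the Ssa2 strain and 1 in Ssa3, and 0 were above 2-fold in any. The median log2 ratios were -0.84 for Ssa2, -1.27 for Ssa4 and -0.44 for Ssa3. ICL1, the isocitrate lyase of the glyoxylate cycle, read 20566, 5998, 16310 and 26197 on the Ssa2, Ssa4, Ssa3 and Ssa1 arrays, and so was low on the Ssa4 array alone. The malate synthase MLS1 and the methylcitrate synthase CIT3 met the ratio limits but stood lowest in Ssa4. MLS1 had ratios of 0.470 in Ssa2, 0.130 in Ssa4 and 0.605 in Ssa3, and CIT3 had 0.425, 0.150 and 0.808. DAL7, a second malate synthase, was low in all 3 strains, with ratios of 0.337, 0.413 and 0.357.

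ETR1 encodes an enoyl thioester reductase of fatty acid synthesis in mitochondria. It read 161 on the Ssa2 array, 201 on Ssa4, 399.5 on Ssa3 and 412 on Ssa1, the same split of arrays as ACO1. The neighbouring spots on the Ssa4 array were low as well, with a median log2 ratio of -0.35, and with this subtracted the Ssa4 ratio was 0.621. Among 9 named genes of a list of 18 for peroxisomes and fatty acids, ETR1 and DCI1 are in the group, and 3 of the 9 were below 0.5 times Ssa1 in the Ssa2 strain, 8 in the Ssa4 strain and 1 in the Ssa3 strain. CTA1, the peroxisomal catalase that was set aside by name, read 103, 93.1, 237 and 302 on the Ssa2, Ssa4, Ssa3 and Ssa1 arrays. DCI1, a peroxisomal protein of disputed activity, read only 2.06, 2.69, 2.91 and 5.54.

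Sugars other than glucose were represented by GAL7 and XYL2. GAL7, the uridyl transferase of galactose use, read 9.2 on the Ssa2 array, 7.28 on Ssa4, 24.1 on Ssa3 and 23.5 on Ssa1. XYL2, the xylitol dehydrogenase, read 32.4, 34.8, 77.1 and 74.0 on the same arrays. Both were about as high in Ssa3 as in Ssa1, at low signal. GAL1, the galactokinase of the same pathway, had ratios of 0.474 in Ssa2, 0.675 in Ssa4 and 0.737 in Ssa3, and so passed the limit in Ssa2 alone. Of the 6 named genes in this list of 12, 5 were below 0.5 in Ssa2, 4 in Ssa4 and 0 in Ssa3. TOG1, a zinc cluster regulator of growth on fatty acids, read 17.5, 12.8, 25.7 and 35.4 and was just inside the Ssa2 limit at a ratio of 0.494. Its neighbouring spots had a median log2 ratio of -0.80 in Ssa4. With the neighbour medians subtracted its ratios were 0.557 in Ssa2 and 0.631 in Ssa4, neither of them below the limit of 0.5.

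Among genes of nitrogen use, YOR302W was the brightest in the group. It is the arginine attenuator peptide, encoded by the upstream reading frame in the CPA1 transcript, through which arginine limits the synthesis of the Cpa1 subunit. Its feature read 108 on the Ssa2 array, 58.9 on Ssa4, 264 on Ssa3 and 274 on Ssa1. The Ssa4 strain was 4.64-fold lower and the Ssa2 strain 2.53-fold lower than Ssa1. The frame lies within the CPA1 transcript, so RNA of the frame and of that transcript cannot be told apart.

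ASP3-1, a cell wall asparaginase that is made on nitrogen starvation, read 66.5, 57.8, 113 and 136 on the Ssa2, Ssa4, Ssa3 and Ssa1 arrays. It was near the Ssa2 limit, at a ratio of 0.491. The gene has near-identical copies side by side in the reference strain, so its signal cannot be given to 1 copy. The feature of another copy, ASP3-3, read 4.12, 8.08, 7.41 and 9.28, with ratios of 0.444 in Ssa2 and 0.871 in Ssa4. Over the 17 named genes of the list of 41, 7 were below 0.5 times Ssa1 in Ssa2, 12 in Ssa4 and 2 in Ssa3, with YOR302W, ASP3-1, ALP1 and DUR3 in the group. Of the 17, 1 was above 2-fold in Ssa3, PUT2 of proline use, with ratios of 0.930 in Ssa2, 1.15 in Ssa4 and 2.86 in Ssa3.

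PMA2, a minor isoform of the proton pump of the plasma membrane, showed one of the widest gaps. Its intensity was 172 on the Ssa2 array, 151 on Ssa4, 723 on Ssa3 and 573 on Ssa1. The Ssa2 and Ssa4 values lay near each other, 3.34-fold and 3.79-fold below Ssa1, and the Ssa3 value was the highest of the 4. PMA1, the closely related main pump, read 524, 250, 688 and 562 on these arrays and passed the limit in the Ssa4 strain alone. The sequences are alike, and cross-hybridization between their features was not tested.

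STL1 encodes a glycerol symporter that is repressed by glucose and induced by osmotic shock. It read 68.4 on the Ssa2 array, 48.4 on Ssa4, 213 on Ssa3 and 147 on Ssa1. Like PMA2 it was highest in the Ssa3 strain, at 1.45 times Ssa1. STL1 was the sole member among 17 named genes of a list of 31 for carbon source regulation, of which 4 were below 0.5 and 4 above 2 times Ssa1 in Ssa2, 9 and 5 in Ssa4, and 5 and 2 in Ssa3. The other transporters were dimmer. DUR3, for urea and polyamines, read 31.6, 21.2, 57.2 and 65.0, and ALP1, for arginine, read 11.2, 6.32, 30.3 and 27.4. YOL163W, a relative of the allantoate permease, had ratios of 0.384 in Ssa2, 0.426 in Ssa4 and 0.664 in Ssa3. Its neighbouring spots had a median log2 ratio of -0.70 in Ssa4, and with this subtracted the Ssa4 ratio was 0.693. Of the 12 named genes in the list of 13 transporters, 7 were below 0.5 and 1 above 2 times Ssa1 in Ssa2. The counts were 10 and 1 in Ssa4, and 2 and 0 in Ssa3. The methionine permease MUP1 went the other way, at 2.54 times Ssa1 in Ssa2, 3.33 in Ssa4 and 1.81 in Ssa3.

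Both alpha-specific genes with a name were in the group, although the strain is MATa. SAG1, the alpha-agglutinin of the cell surface, read 128 on the Ssa2 array, 142 on Ssa4, 225 on Ssa3 and 315 on Ssa1. The signal of MF(ALPHA)1, the main gene for alpha-factor, was 6.7, 3.97, 16.2 and 17.7. In contrast the a-factor gene MFA1 read 4302 in Ssa2, 6119 in Ssa4, 4299 in Ssa3 and 3015 in Ssa1. No other gene in the list of 12 for mating type has a name here.

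Among genes of spore formation, SPO19, a prospore membrane protein, read 66.5 on the Ssa2 array, 54.7 on Ssa4, 91.5 on Ssa3 and 152 on Ssa1. Here the Ssa3 value lay between the low and the high arrays, at a ratio of 0.602. With the neighbour median of -0.48 subtracted, its Ssa4 ratio was 0.503. SPO77, needed for the spore wall, read 1.57, 1.67, 3.22 and 3.4, near the floor of the arrays. The list of 39 for meiosis and spores has 17 named genes, of which SPO19, SPO77, SDD1, MIP6 and YEL023C are in the group. Of the 17, 11 were below 0.5 times Ssa1 in Ssa2, 7 in Ssa4 and 5 in Ssa3, and 1 was above 2-fold in Ssa4. The inducer of meiosis IME1 had ratios of 0.675 in Ssa2, 0.581 in Ssa4 and 0.413 in Ssa3, and so passed the limit in the Ssa3 strain alone, where its neighbouring spots had a median log2 ratio of -0.89.

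Genes that act on chromosomes, RNA or ribosomes had Ssa3 values mostly between those of the other strains, with a median ratio of 0.658 in Ssa3 beside 0.382 in Ssa2 and 0.4 in Ssa4. JIP5, which is needed to make the large ribosomal subunit, read 113 on the Ssa2 array, 95.6 on Ssa4, 158 on Ssa3 and 239 on Ssa1. ABM1, needed for normal microtubules, read 65.7, 59.6, 111 and 172. RTT105, a regulator of Ty1 transposition, read 48.2, 54.3, 89.1 and 136. For all 3 the Ssa3 value was lower than the Ssa1 value but, as the rule requires, short of 2-fold.

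The dimmer genes of this class were RRN6, a subunit of the core factor of RNA polymerase I, MIP6, an RNA-binding protein, NBL1, a subunit of the chromosomal passenger complex, and FDO1, a nuclear protein. NBL1 had ratios of 0.312 in Ssa2, 0.268 in Ssa4 and 0.898 in Ssa3, at intensities of 12.1 to 45.3. FDO1 was higher in Ssa3 than in Ssa1, at 32.5 and 24.1, and read 7.68 and 9.0 in Ssa2 and Ssa4. RRN6 had ratios of 0.479 in Ssa2, 0.447 in Ssa4 and 0.632 in Ssa3, at 46.0 on the Ssa1 array. MIP6 read 25.4, 26.5, 42.2 and 65.9 on the Ssa2, Ssa4, Ssa3 and Ssa1 arrays. In a list of 8 for ribosomes and RNA, 5 genes have a name, of which 3 were below 0.5 times Ssa1 in Ssa2, 4 in Ssa4 and 0 in Ssa3. RRN11, another subunit of the core factor, was above 2-fold in Ssa4, with ratios of 1.42 in Ssa2, 3.63 in Ssa4 and 1.69 in Ssa3.

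In secretion, signalling and autophagy, the autophagy gene ATG29 read 56.6 on the Ssa2 array, 53.3 on Ssa4, 65.2 on Ssa3 and 117 on Ssa1. Here the Ssa1 array alone was high, and the neighbouring spots of ATG29 on the Ssa3 array were low, at a median log2 ratio of -0.69. TCA17, a subunit of the TRAPPII complex of the Golgi, had the same shape, at 24.9, 19.8, 28.9 and 56.3. Its neighbouring spots had a median log2 ratio of -0.61 in Ssa4, and with the neighbour medians subtracted its ratios were 0.531 in Ssa2, 0.538 in Ssa4 and 0.467 in Ssa3. PGA1, a subunit of a mannosyltransferase for GPI anchors, read 37.2, 24.7, 67.7 and 78.4, and ATG38, of the lipid kinase complex for autophagy, read 24.0, 21.0, 60.5 and 52.4. KDX1, a kinase linked to the cell wall integrity pathway, read 8.61, 9.91, 17.1 and 20.4. The list of 11 for secretion, Golgi and cell wall has 7 named genes, of which 5 were below 0.5 times Ssa1 in Ssa2, 6 in Ssa4 and 0 in Ssa3. The autophagy gene ATG8 went the other way on the arrays of all 3 strains, at 6.69 times Ssa1 in Ssa2, 10.2 in Ssa4 and 5.76 in Ssa3. The RT-qPCR of the study did not show this rise, with ATG8 less than 2-fold from Ssa1 in each strain. No gene of the group was among those measured by RT-qPCR, so the low values of the group were not tested by it. Of the genes measured, ILV6, LYS20, HUF1, YBR197C and ADH2 were below 0.5 times Ssa1 on the Ssa2 array. By RT-qPCR only ADH2 was below 0.5 in that strain. In the Ssa4 strain each measured gene below 0.5 on the array was also below 0.5 by RT-qPCR.

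The 2 retrotransposon genes, YJL113W and YHL009W-A, belong to repeated elements, so their signal cannot be given to 1 locus. YJL113W read 8.53 on both the Ssa2 and the Ssa4 array, 30.1 on Ssa3 and 28.5 on Ssa1. Its neighbouring spots had median log2 ratios of -0.30 in Ssa2 and -0.72 in Ssa4. With these subtracted its own log2 ratios were -1.44 in Ssa2 and -1.03 in Ssa4. YHL009W-A read 1.74, 1.78, 2.69 and 3.64, near the lowest values of the arrays. With the neighbour medians subtracted its ratios were 0.749 in Ssa2 and 0.594 in Ssa4.

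Of the genes put in no role, ICS2 had the lowest Ssa4 ratio of the 42. It read 228 on the Ssa2 array, 127 on Ssa4, 551 on Ssa3 and 731 on Ssa1. EMA17 (YIL029C) had the lowest Ssa2 ratio, at 0.240, with intensities of 45.2, 53.5, 95.6 and 188. With the neighbour medians subtracted, its Ssa3 ratio was 0.466, below the limit. SDD1 (YEL057C) read 44.3, 42.5, 115 and 139, and YLR125W read 107, 88.1, 142 and 282. YLR125W was the gene just inside the Ssa3 limit, at a ratio of 0.502, followed by EMA17 at 0.508 and TCA17 at 0.513.

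YCL042W was the single gene of the group that was past 2-fold in the other direction in the Ssa3 strain. It read 36.3 on the Ssa2 array, 18.9 on Ssa4, 186 on Ssa3 and 83.0 on Ssa1, so all 4 arrays differed. YEL023C read 26.9, 23.5, 50.3 and 65.2 on the Ssa2, Ssa4, Ssa3 and Ssa1 arrays. YCR095W-A, YLR030W, YLR415C and YKR015C, the rest of this class, read between 2.09 and 60.6 on the Ssa1 array. The ratios of these 4 ran from 0.376 to 0.491 in Ssa2 and from 0.405 to 0.492 in Ssa4. With the neighbour medians subtracted, YKR015C had ratios of 0.565 in Ssa2 and 0.796 in Ssa4.

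Just outside the limits, RAD57 missed the group with 37.8 on the Ssa2 array and 75.5 on the Ssa1 array. PRI1 and DAL2 missed it by Ssa2 ratios of 0.502 and 0.506. ALR2 missed it by an Ssa4 ratio of 0.509, and POP3 and an unnamed feature by one of 0.540. KAR5, YER039C-A and YIL134C-A missed it by Ssa3 ratios of 0.470, 0.436 and 0.4. Just inside, the Ssa2 ratio was 0.494 for TOG1 and 0.491 for YLR415C and ASP3-1, and the Ssa4 ratio was 0.492 for YKR015C, 0.491 for ACO1 and 0.489 for SPO77.

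**Figure D4:**
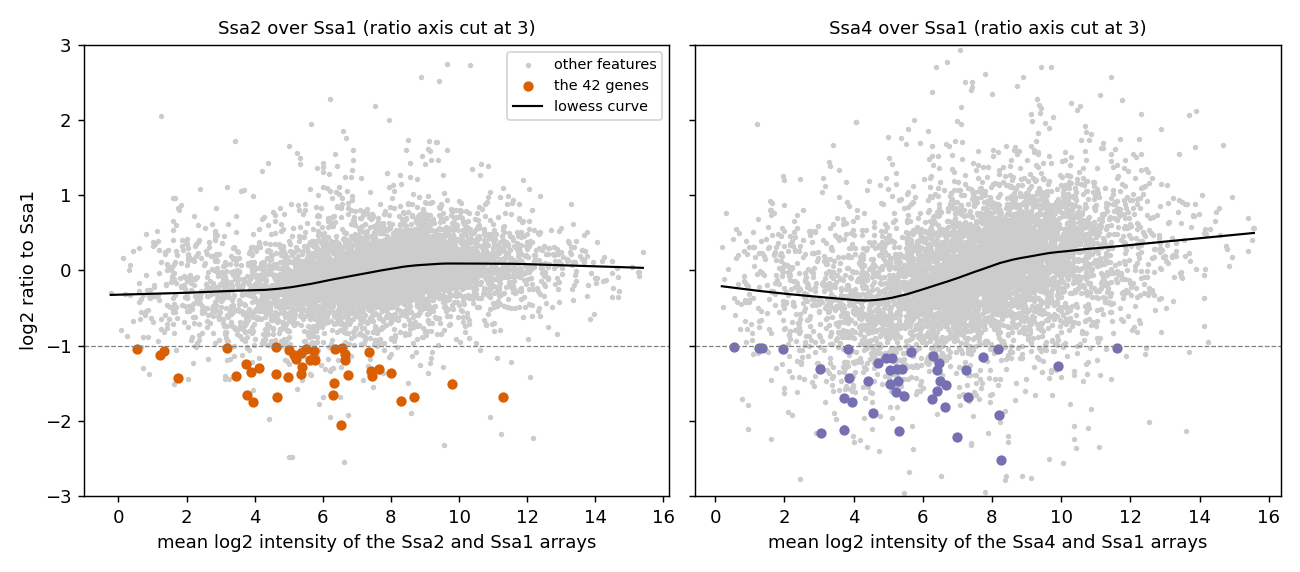
Log2 ratio to Ssa1 against the mean log2 intensity of both arrays for the Ssa2 strain (left) and the Ssa4 strain (right), with the 42 genes in colour, other features in grey and the lowess curve of all features in black. The curve lies below 0 at low intensity in both panels, and 25 of the 42 genes read below 100 on the Ssa1 array. The ratio axis leaves out 2 features at left and 15 at right.

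The ratios of all features leaned downward at low signal in the Ssa2 and Ssa4 strains. Features below 100 on the Ssa1 array had a median log2 ratio of -0.17 in Ssa2 and -0.24 in Ssa4, and those of at least 100 had 0.03 and 0.08. A ratio below 0.5 was found for 4.0% of the features below 100 and 1.61% of those at or above it in Ssa2, and for 11.7% and 4.95% in Ssa4. After subtraction of the lowess curve, 23 of the 42 genes still met the ratio limits, among them 15 of the 17 that read at least 100 on Ssa1. The part of this trend in the low ratios of the dimmer genes was not tested further.

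**Figure D5:**
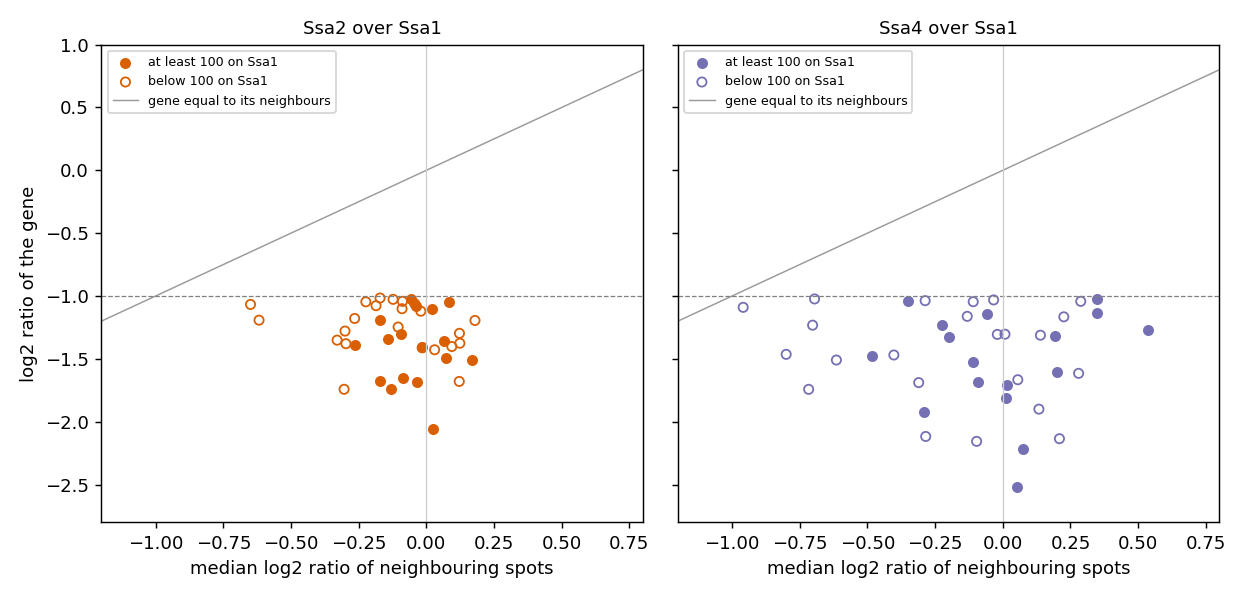
Log2 ratio to Ssa1 of each gene (y) against the median log2 ratio of its neighbouring spots (x) in the Ssa2 strain (left) and the Ssa4 strain (right), filled where the gene read at least 100 on the Ssa1 array and open below 100, for the 40 genes with a place on the grid. Neighbour medians in Ssa2 spread from -0.65 to 0.18 and in Ssa4 from -0.96 to 0.53. All points lie below the line on which a gene would equal its neighbours. This follows from the rule, as it keeps each gene below 0.5 times Ssa1 and no neighbour median was that low.

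Neighbouring spots were compared because signal can vary over the surface of an array. The grid was inferred from the feature names and from the correlation of these same values. For 40 of the 42 genes a neighbour median could be had. It was below -0.3 on the log2 scale for 5 genes in Ssa2, 10 in Ssa4 and 4 in both, beside 8.84%, 17.9% and 4.49% of all features. XYL2 had a neighbour median of -0.62 in Ssa2 and the lowest one in Ssa4, -0.96. With these subtracted its ratios were 0.672 in Ssa2 and 0.913 in Ssa4. The neighbour medians of ACO1 and SDH9 in Ssa4 were 0.35 and 0.53, and in Ssa2 they were -0.17 and 0.17. For PMA2, ICS2 and YOR302W they lay between -0.29 and 0.08 in both strains. YEL023C and GAL7 were the sole pair of the 42 genes that neighbour each other on this grid.

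In the genome the genes were scattered. They lay on 13 of the chromosomes, with 8 on chromosome 12, or 19.0% beside 8.67% of all genes, and 5 each on chromosomes 5 and 16. Of the 84 genes next to them in the R64 gene table, 15 have a named feature and 0 are in the group. Of those 15, 3 were below 0.5 times Ssa1 in the Ssa2 strain and 8 in Ssa4, beside 2.37% and 7.1% of all features. They have a name only because the study listed them as changed, so nothing is read from these counts. The gene next to ACO1, MET17, had ratios of 3.27 in Ssa2, 0.972 in Ssa4 and 2.16 in Ssa3.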

How the data were processed

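The files hold 1 array for each of the 4 strains. The authors labelled amplified RNA with Cy5, quantified each spot as its median foreground (GenePix Pro), called a spot detected where it exceeded the upper confidence limit of blank spots, removed the mean blank signal and applied a global median normalization. What they deposited is the resulting linear intensity, for 5783 features on the Ssa2 array, 5776 on Ssa4, 5780 on Ssa3 and 5786 on Ssa1.

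Ratios were formed from these values with no offset and no filter. With 1 array per strain no test was possible, and the number of arrays limits the precision. The members and gene lists were chosen with earlier results of these data known. By the rule for names, members of at least 100 on Ssa1 and those in a list or just inside a limit are given with values, as are the 3 features just outside each limit. Names came from 955 rows of the study's list of changed genes, each matching 1 feature in all 4 values within a relative tolerance of 1e-05, and current symbols from the R64 gene table. The roles were assigned by hand from general knowledge and the descriptions in that list. Neighbouring spots are those 1, 14 and 15 positions away in 32 blocks, a layout picked from the correlation of these values, with at least 3 needed. The alternatives were equal medians, quantile normalization, a lowess curve (fraction 0.4), an offset of 50, subtraction of the neighbour median, other thresholds, limits on low signal and Ssa3 as reference. The code of the selection was checked on simulated data with planted changes and little noise. That check does not cover the noise of dim genes on these arrays. The planned search for motifs in promoters was not run. Python 3.11.15, numpy 2.4.6, pandas 2.3.3, statsmodels 0.14.6 and matplotlib 3.10.9 were used.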

Additional observations from a re-analysis of the deposited data

Results flagged for a closer look

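YCL042W was past 2-fold in opposite directions, at 2.25 times the Ssa1 signal in the Ssa3 strain and 0.437 and 0.228 times in the Ssa2 and Ssa4 strains. Its neighbouring spots had median log2 ratios of 0.22 in Ssa3, 0.18 in Ssa2 and 0.21 in Ssa4. The difference between strains was not tested, since each has 1 array.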

How the results depend on the processing

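Of the 42 genes, 6 met the ratio limits under each of the 5 changes of normalization, offset and local signal: ACO1, SDH9, PMA2, ICS2, YOR302W and SDD1. With the offset set aside, 16 did. The group had 23 features under quantile normalization, of which 20 were among the 42, 26 and 23 after the lowess curve, and 9 and 8 with an offset of 50, which shrinks the ratio of dim features by construction. Subtraction of the neighbour median gave 44 features with 23 of the 42, and 2 of the 19 lost genes have no place on the grid. The lost genes include PGA1, DUR3, ASP3-1, YEL023C, YLR415C, DCI1, SPO77 and KDX1, for which no adjusted ratio is given above. A 3-fold threshold left 6, an Ssa3 limit of 0.75 left 26, and a limit of 100 on Ssa1 left 17. With Ssa3 as the reference 76 features passed, 17 of them among the 42. Equal medians, rounding and a limit of 20 on Ssa1 kept the count within 1.5 times.

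The median log2 ratio of the 42 genes in Ssa2, -1.3 as deposited, was -1.08 under quantile normalization, -1.1 after the lowess curve, -0.58 with the offset and -1.14 with the neighbour median subtracted. In Ssa4, -1.37 as deposited, it was -1.16, -1.15 and -0.63 under the first 3 of these. In Ssa3, -0.27 as deposited, it was -0.11 with the offset and -0.41 with the neighbour median subtracted. No paired analysis was possible because each strain has 1 array. Of the 17 genes of at least 100 on Ssa1, 14 were kept under quantile normalization, 15 after the lowess curve, 8 with the offset and 13 with the neighbour median subtracted.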
